A study of Mus musculus with 9 samples.

Results

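Adipose tissue is a mixture. Adipocytes fill most of its volume, but macrophages, lymphocytes, endothelial cells, mural cells of vessel walls, stromal progenitors, mesothelium, nerve and blood share the tissue with them. Translating ribosome affinity purification pulls tagged ribosomes out of a whole-tissue lysate, so that RNA is read mainly from the cells that carry the tag, and transcripts that only other cells make should be scarce in the eluate. The genes described here are 36 markers of such other cells: 7 of macrophages and other myeloid cells, 6 of lymphocytes, 6 of endothelium, 6 of progenitors and fibroblasts, 4 of mural cells, 3 of mesothelium, 1 of glia and 3 of red cells. They were taken by symbol from the deposited table, and all 36 were found among its 22527 symbols.

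The 9 libraries hold ribosome-bound RNA of C57BL/6 mice labelled wild type and aged 8 weeks, 3 libraries for each of 3 depots: brown fat (BAT), the subcutaneous inguinal white depot (iWAT) and the visceral epididymal white depot (eWAT). The pull-down used an antibody to GFP in every group, on lysates freed of their lipid layer. The series is named for adipocytes and its table for adiponectin, and the labels do not say which cells carried the tag. Nor do they say whether the replicates are separate animals, so p-values measure only the spread between these libraries, which may be technical. No input or unbound fraction is among the samples. Enrichment over whole tissue was therefore not measured, and each marker was set beside adipocyte genes of the same library.

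Values are FPKM (fragments scaled by transcript length and by library size), which puts genes of unlike length and libraries of unlike depth on 1 scale. Their sum still differed, from 473000 FPKM in iWAT 2 to 684000 FPKM in BAT 1, so comparisons between libraries are approximate. Read totals are not given. Steps of single reads among low values put the depth, in M reads (megareads), at 11.1 to 21.2 in BAT, 2.92 to 4.66 in iWAT, 16.0 in eWAT 1, and 4.46 and 4.52 in eWAT 2 and 3. At these depths 1 read on a transcript of 2000 bases was worth between 0.0262 FPKM (BAT 2) and 0.19 FPKM (iWAT 3), so values well under 1 FPKM in the shallow libraries rest on very few reads. A listed 0 may also be a failed estimate: 4 genes were at 0 in 1 library and at 10 FPKM or more in the 8 others. The tissue field of BAT 3 names inguinal fat while its title names brown fat. Its Ucp1, the uncoupling protein of brown adipocytes, was at 3050 FPKM, against at most 3.38 FPKM in a white library, and it was kept in BAT. Where a count of called markers moves without it, that value is given.

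The markers were low in every library. Over all 9 libraries the median of the 36 mean levels was 0.287 FPKM, and the highest mean, that of Ly6a, was 8.25 FPKM. A mean under 1 FPKM was found for 28 of 36 markers (77.8%), beside 56.3% of all 22527 symbols, many of which are not expressed in fat at all. The 17 adipocyte reference genes, which include adiponectin (Adipoq), perilipin 1 (Plin1) and the fatty acid binding protein Fabp4, had means between 61.4 and 35100 FPKM with a median of 407 FPKM. In the 6 white libraries all 17 of these genes stood above the highest marker. In the BAT libraries 16 of 17 did, the exception being leptin (Lep), a hormone of white adipocytes, at 1.45 to 4.13 FPKM there.

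**Figure D1:**
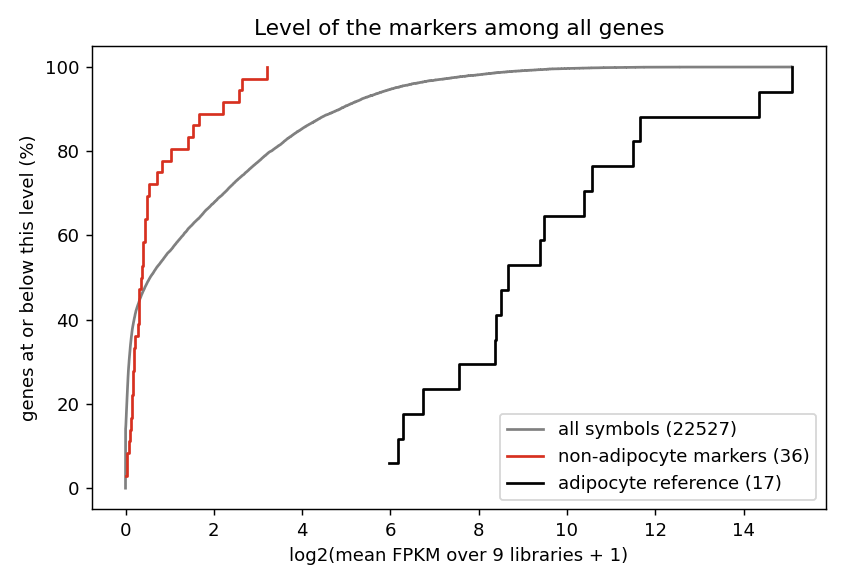
Share of genes (vertical axis, percent) at or below a given level (horizontal axis, log2 of the mean FPKM over 9 libraries plus 1) for all 22527 symbols, the 36 non-adipocyte markers and the 17 adipocyte reference genes. The marker curve ends at Ly6a (8.25 FPKM), to the left of the lowest reference gene (61.4 FPKM).

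Summed over all 36 markers, the level was 17.4, 24.2 and 18.9 FPKM in BAT 1 to 3, 51.2, 43.1 and 37.7 FPKM in iWAT 1 to 3, and 32.7, 34.6 and 59.6 FPKM in eWAT 1 to 3. This is at most 0.0106% of all FPKM in a library, where the 17 reference genes held between 4.86% and 20.0%. The median marker stood at 0.0259%, 0.0318% and 0.0404% of the median reference gene in BAT, then 0.0617%, 0.215% and 0.0223% in iWAT, and 0.0396%, 0.052% and 0.122% in eWAT. The 3 iWAT libraries span the values of both other depots, so these shares do not order the depots. In iWAT 2 the reference median was 129 FPKM, the lowest of all libraries, and in iWAT 3, the shallowest library, 18 of 36 markers were listed at 0.

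**Figure D2:**
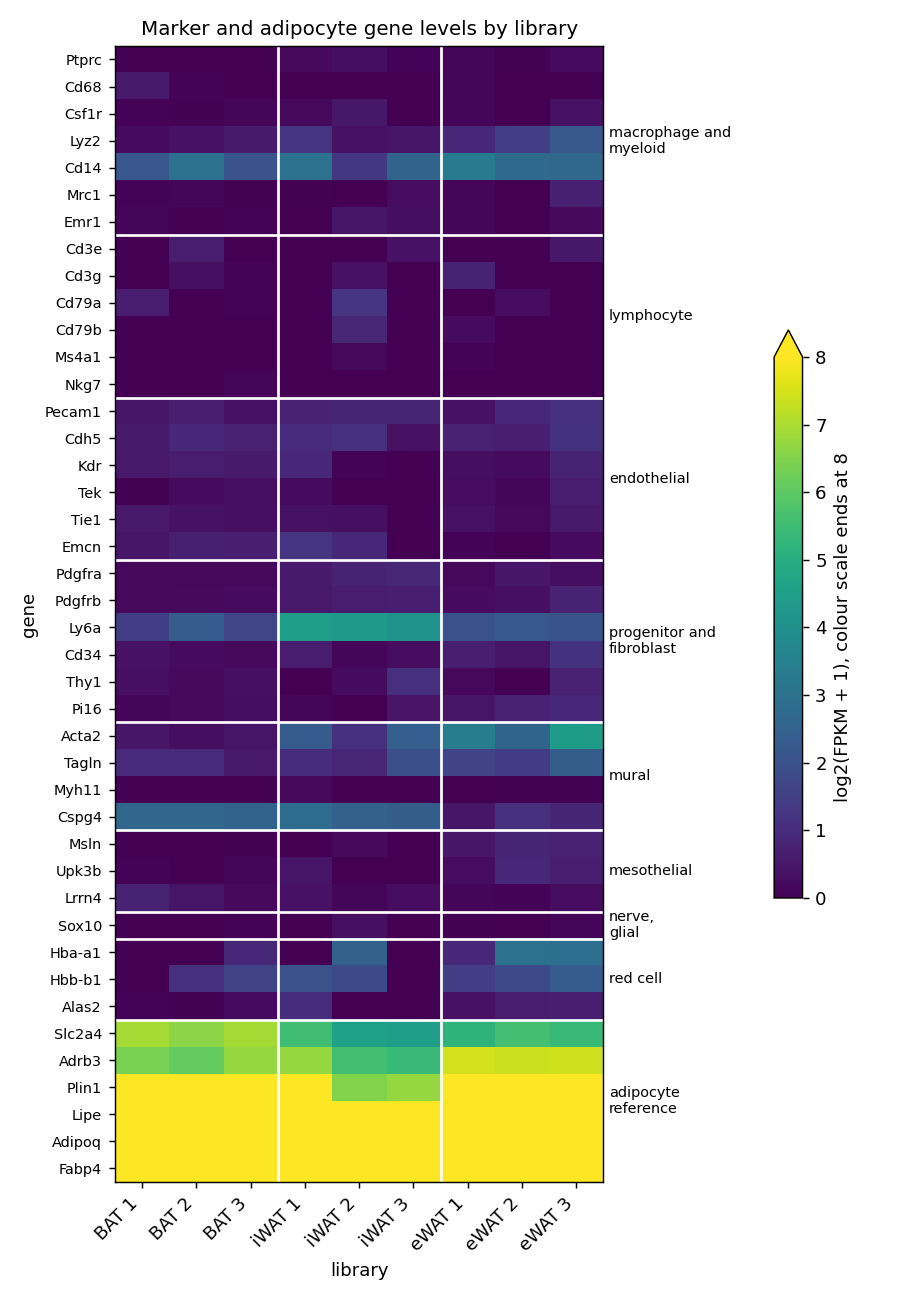
Level of each marker and of 6 adipocyte reference genes (rows) in each library (columns), as log2(FPKM + 1) on a colour scale that ends at 8, with white lines between cell types and depots. Among the markers, Cd14, Ly6a, Acta2 and Cspg4 stand out in some or all libraries, while the rows of lymphocyte, endothelial, mesothelial and glial markers stay near 0 beside Plin1, Adipoq and Fabp4.

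**Figure D3:**
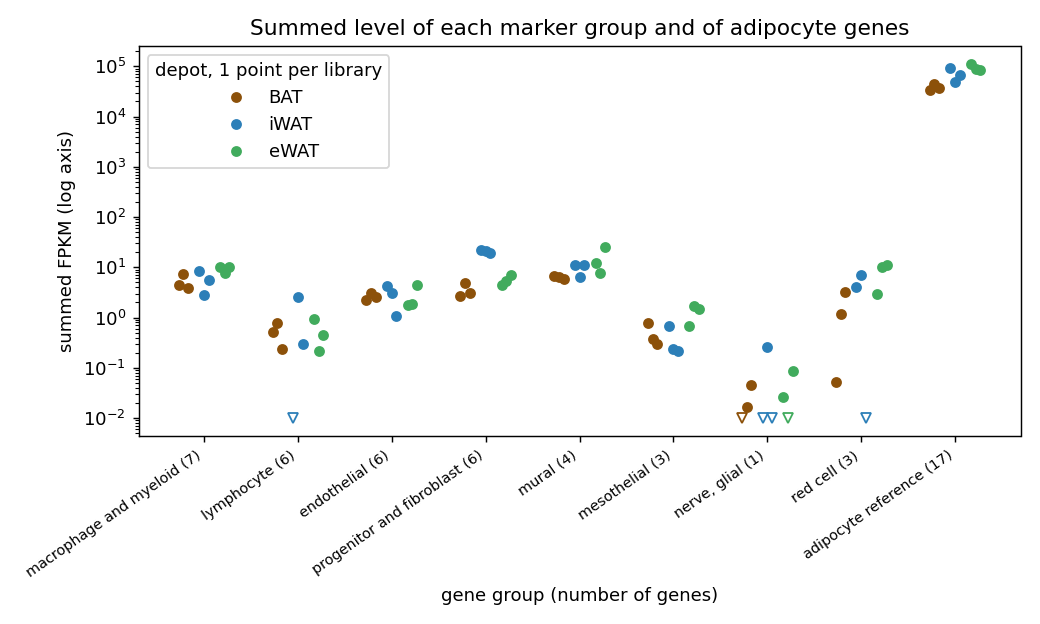
Summed FPKM (log axis) of the markers of each cell type and of the adipocyte reference genes, 1 point per library, with the number of genes in brackets; open triangles mark sums under 0.01 FPKM. The marker sums lie at or below 24.8 FPKM and the reference sums at or above 33300 FPKM.

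The genes that define leukocytes were close to the floor. Ptprc, which encodes the pan-leukocyte phosphatase CD45, had values of 0, 0.0091 and 0 FPKM in BAT, then 0.152, 0.237 and 0.0634 FPKM in iWAT, and 0.0986, 0.0409 and 0.181 FPKM in eWAT. The macrophage genes Csf1r (receptor of colony-stimulating factor 1), Mrc1 (mannose receptor CD206) and Emr1 (F4/80) reached at most 0.416, 0.632 and 0.38 FPKM. Cd68, a lysosomal protein of macrophages, was listed at 0 in 6 of 9 libraries and reached 0.505 FPKM in BAT 1. None of these 5 genes reached 1 FPKM in any library, in any depot.

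Lymphocyte markers were also close to the floor. The natural killer and T cell granule gene Nkg7 was listed at 0 in 8 libraries and the B cell gene Ms4a1 (CD20) and the B cell receptor chain Cd79b in 7 each. The T cell receptor chains Cd3e and Cd3g did not exceed 0.544 and 0.69 FPKM. The single lymphocyte value above 1 FPKM was that of Cd79a in iWAT 2, at 1.32 FPKM. Cd79b had its highest value in the same library, at 0.812 FPKM. Sox10, the transcription factor of Schwann cells and other glia, was at 0.265 FPKM at most, also in iWAT 2.

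Endothelial markers were low but were listed above 0 in most libraries. The junction proteins Cdh5 (VE-cadherin) and Pecam1 (CD31) were above 0 in all 9 libraries. Cdh5 was at 0.494, 0.897 and 0.678 FPKM in BAT, 0.916, 1.14 and 0.282 in iWAT and 0.67, 0.593 and 1.27 in eWAT. Pecam1 was at 0.386, 0.583 and 0.279 FPKM in BAT, 0.676, 0.77 and 0.787 in iWAT and 0.317, 0.836 and 1.16 in eWAT. The depots overlapped for Cdh5, and for Pecam1 each iWAT value lay above each BAT value. The receptors Kdr (VEGF receptor 2), Tek (angiopoietin receptor) and Tie1 and the sialomucin Emcn had medians over the 9 libraries of 0.464, 0.181, 0.281 and 0.373 FPKM, and all 4 were listed at 0 in iWAT 3. Adipoq exceeded Pecam1 by 591-fold to 8554-fold and Cdh5 by 399-fold to 4047-fold, with the lowest ratio for each in iWAT 2.

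Of the 6 markers of progenitors and fibroblasts, 5 stayed at or below 1.24 FPKM and Ly6a did not. Pdgfra, the PDGF receptor that marks adipocyte precursors, was at 0.135, 0.116 and 0.121 FPKM in BAT, 0.48, 0.726 and 0.806 in iWAT and 0.137, 0.403 and 0.223 in eWAT. Its iWAT values were above all others, and eWAT 1, the deep eWAT library, was close to BAT. Pdgfrb, the PDGF receptor of mural and stromal cells, lay between 0.127 and 0.17 FPKM in BAT, between 0.461 and 0.577 in iWAT and between 0.183 and 0.691 in eWAT. Cd34, an antigen of stromal and endothelial progenitors, Thy1 (CD90) and the fibroblast gene Pi16 reached 1.24, 1.11 and 0.859 FPKM at most. Adipoq exceeded Pdgfra by 628-fold to 19756-fold.

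The mesothelial markers Msln (mesothelin), Upk3b (uroplakin 3b) and Lrrn4 reached 0.789, 0.874 and 0.732 FPKM. Mesothelium covers visceral fat, and the epididymal pad is such a depot. Msln was at 0.41, 0.789 and 0.655 FPKM in eWAT, against 0, 0.144 and 0 in iWAT and 0, 0 and 0.0314 in BAT, so that eWAT did not overlap with the other depots. Upk3b was at 0.201, 0.874 and 0.606 FPKM in eWAT and at 0.367, 0 and 0 in iWAT. Lrrn4 went the other way, with its lowest mean in eWAT. It was at 0.0706, 0.0658 and 0.194 FPKM in eWAT, 0.31, 0.0902 and 0.212 in iWAT and 0.732, 0.366 and 0.16 in BAT. Myh11, the myosin heavy chain of smooth muscle, did not exceed 0.143 FPKM.

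A filter of at least 1 FPKM in at least 3 libraries was passed by 8 of the 36 markers, and by 10374 of 22527 symbols (46.1%). They were Lyz2, Cd14, Ly6a, Acta2, Tagln, Cspg4, Hba-a1 and Hbb-b1. The 28 others gave 252 values (28 genes in 9 libraries), of which 78 were listed at 0, 166 lay above 0 and under 1 FPKM, and 8 were at 1 FPKM or more. The 8 that passed were compared between depots with limma on log2(FPKM + 1), fitted to all 10374 genes with Benjamini-Hochberg adjustment over them, and called at an adjusted p under 0.05. In bulk samples fewer cells of a type and less RNA per cell cannot be told apart.

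**Figure D4:**
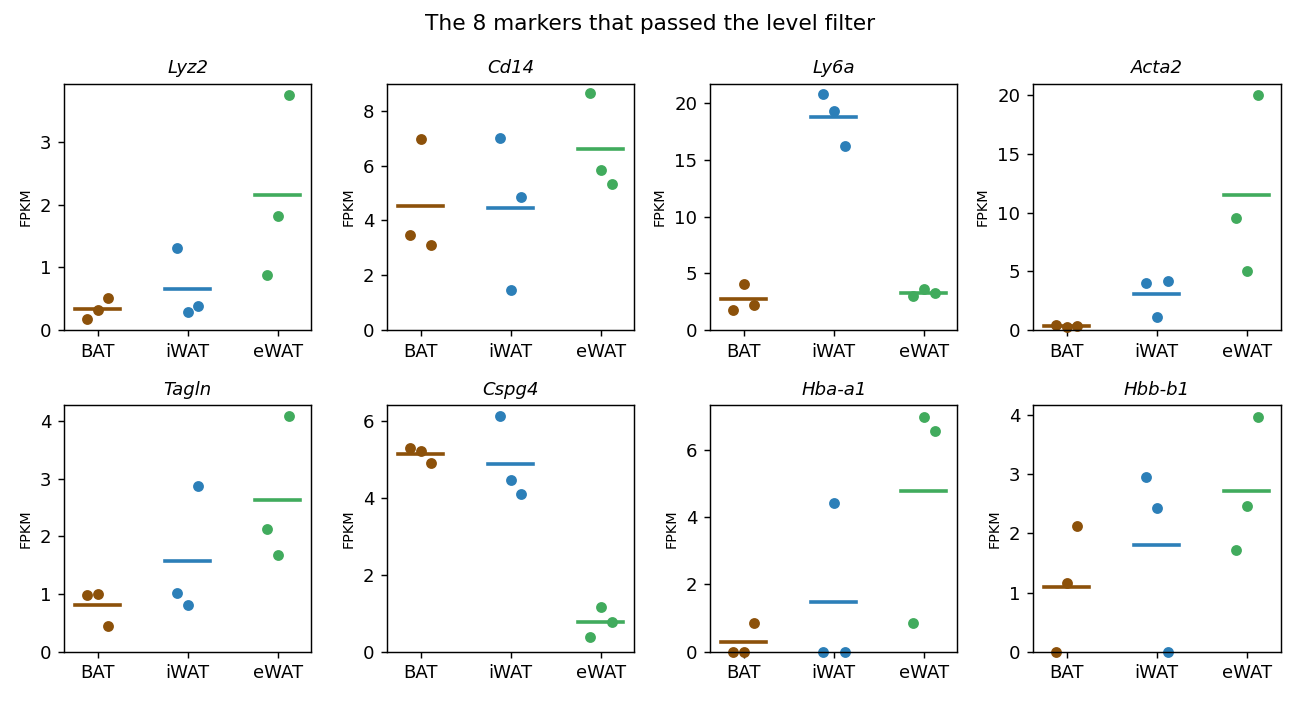
FPKM (linear axes from 0) of the 8 markers that passed the level filter, by depot, with points for replicates 1 to 3 from left to right and a line for the mean (n = 3). Ly6a is high in the 3 iWAT libraries (16.2 to 20.8 FPKM) and Cspg4 is low in the 3 eWAT libraries (0.391 to 1.17 FPKM), both without overlap.

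Ly6a (chromosome 15, 74825308 to 74828064, minus strand, protein-coding, build mm9) encodes Sca-1, a surface antigen used to sort stromal progenitors. Its iWAT values were 20.8, 19.3 and 16.2 FPKM, beside 1.80, 4.06 and 2.20 FPKM in BAT and 3.01, 3.61 and 3.25 FPKM in eWAT. All iWAT libraries were far above the 6 others, and BAT and eWAT overlapped. On the log2(FPKM + 1) scale BAT minus iWAT was -2.46 (SE 0.25, limma adjusted p = 5.83e-05). The difference iWAT minus eWAT was 2.20 (SE 0.25, limma adjusted p = 0.00256), and without the 2 shallow eWAT libraries it was 2.29 (adjusted p = 0.0637). BAT minus eWAT was -0.26 (SE 0.25, adjusted p = 0.437). These levels correspond to roughly 9 to 60 reads per library. The deep eWAT library was at 3.01 FPKM and the shallow ones at 3.61 and 3.25 FPKM, and the part of depth was not tested. Pdgfra, Pi16, Thy1 and Cd34 were each at 1.11 FPKM or less in the iWAT libraries. Ly6a belongs to a family of similar genes on chromosome 15, and how the authors' pipeline divided reads among them is not given in the sources used here.

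Cspg4 (chromosome 9, 56712911 to 56747677, plus strand, protein-coding) encodes NG2, a proteoglycan of pericytes. It was at 5.30, 5.21 and 4.90 FPKM in BAT, 6.11, 4.45 and 4.09 in iWAT and 0.391, 1.17 and 0.772 in eWAT. The 3 eWAT libraries were below all others, and BAT and iWAT overlapped. BAT was 1.81 above eWAT on the log2(FPKM + 1) scale (SE 0.23, limma adjusted p = 0.000237) and iWAT 1.73 above eWAT (SE 0.23, limma adjusted p = 0.00665; 0.0632 when these depots were fitted alone). The transcript is long (8050 bases), and roughly 27 to 49 reads stand behind the eWAT values and 94 to 866 behind the others. The lowest value was in eWAT 1, the deep eWAT library, and the part of depth in the difference was not tested.

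The contractile mural markers Acta2 and Tagln were ordered differently, with their highest mean in eWAT, while Myh11 was near the floor in every depot. Acta2 (chromosome 19, 34315580 to 34329826, minus strand) encodes smooth muscle actin. It was at 0.407, 0.228 and 0.363 FPKM in BAT, 4.00, 1.09 and 4.19 in iWAT and 9.52, 4.99 and 20.0 in eWAT, with no overlap between any of the depots. BAT minus eWAT was -3.04 (SE 0.46, limma adjusted p = 0.000614) and BAT minus iWAT was -1.51 (SE 0.46, limma adjusted p = 0.0173), both on the log2(FPKM + 1) scale. The second call was lost without BAT 2 (adjusted p = 0.0536) and without iWAT 3 (adjusted p = 0.0666). For iWAT minus eWAT the difference was -1.54 (SE 0.46, adjusted p = 0.0952), and with the replicate number as a block the adjusted p was 0.0498.

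Tagln (chromosome 9, 45737711 to 45744141, minus strand), which encodes the actin-binding protein transgelin, was at 0.991, 0.994 and 0.447 FPKM in BAT, 1.01, 0.816 and 2.88 in iWAT and 2.13, 1.68 and 4.09 in eWAT. BAT minus eWAT was -0.96 on the log2(FPKM + 1) scale (SE 0.34, limma adjusted p = 0.0488). That call ended when any of the BAT libraries, eWAT 1 or eWAT 3 was left out (adjusted p between 0.0548 and 0.178). Acta2 and Tagln had their highest values in eWAT 3, and Cspg4 had its highest in iWAT 1.

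In smooth muscle, genes such as Acta2 are under the control of serum response factor, which binds the CArG box, a 10-base element of CC, 6 bases of A or T, and GG. Of the 3 contractile mural markers, Acta2, Tagln and Myh11, only Acta2 was matched in the promoter table, and its promoter is shown. The 250 bases before its RefSeq start (chr19:34255374-34255623 in GRCm38.p6, minus strand) hold no exact CArG box on either strand. Such a box is held by 1.47% of the 32851 promoters that RefSeq's table gives. With 1 of the 6 inner bases allowed to differ, a looser search chosen after the exact one, the window holds 2 boxes, marked in capitals, whose first bases lie 84 and 34 bases before the start. Of all promoters, 8.59% hold at least 1 box of this looser form and 0.67% at least 2. The element reads in the same form on both strands.
Acta2: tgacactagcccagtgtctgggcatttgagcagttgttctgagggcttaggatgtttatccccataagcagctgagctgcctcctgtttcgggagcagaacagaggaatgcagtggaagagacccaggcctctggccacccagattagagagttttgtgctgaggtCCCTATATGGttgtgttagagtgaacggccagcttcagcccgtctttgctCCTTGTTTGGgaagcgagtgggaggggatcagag
A match of letters describes the window and does not by itself show binding, which was not measured here.

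Cd14 (chromosome 18, 36884728 to 36886390, minus strand), the co-receptor for bacterial lipopolysaccharide, was the only leukocyte marker of the 36 at 1 FPKM or more in all 9 libraries. It was at 3.47, 6.97 and 3.11 FPKM in BAT, 7.0, 1.46 and 4.85 in iWAT and 8.63, 5.84 and 5.34 in eWAT, with overlap between all depots and no adjusted p under 0.327 in limma. Ptprc, in the same libraries, did not exceed 0.237 FPKM. Lyz2 (chromosome 10, 116714390 to 116719377, minus strand), which encodes lysozyme of macrophages and neutrophils, was at 0.181, 0.317 and 0.504 FPKM in BAT, 1.31, 0.288 and 0.374 in iWAT and 0.876, 1.81 and 3.75 in eWAT. BAT minus eWAT was -1.14 (SE 0.34, limma adjusted p = 0.0258), on roughly 1 to 19 reads per library. The call ended without any of the BAT libraries, eWAT 2 or eWAT 3 (adjusted p between 0.0517 and 0.0922), and a near-identical neighbour, Lyz1, makes its assignment uncertain.

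The haemoglobin genes Hba-a1 and Hbb-b1, abundant in red cells, were low and irregular. Hba-a1 was at 0.00146, 1.82e-05 and 0.857 FPKM in BAT, 0.00376, 4.43 and 0 in iWAT and 0.837, 6.97 and 6.56 in eWAT (BAT against eWAT: limma adjusted p = 0.0546, and 0.024 with the replicate number as a block). With the values of its 2 lines summed the adjusted p was 0.0391, and with no filter on low values it was 0.134. The block also ties the BAT libraries by number, for which the values gave no evidence of pairs. The smallest FPKM values of Hba-a1 are far under the value of 1 read and so are not whole reads. The gene has near-identical copies and stands on 2 lines of the table, of which the higher was used, so its values are uncertain. The lower line was at 0, 1.556 and 1.118 FPKM in BAT and 1.709, 2.594 and 0 in eWAT. The copy Hba-a2 went the other way, at 1.67, 1.14 and 0.000164 FPKM in BAT and at most 0.00384 FPKM in eWAT (limma adjusted p = 0.306). Hbb-b1 was at 0.000303, 1.16 and 2.13 FPKM in BAT, 2.96, 2.44 and 0 in iWAT and 1.72, 2.47 and 3.97 in eWAT, with no adjusted p under 0.202. Alas2, the erythroid enzyme of haem synthesis, reached 1.08 FPKM in iWAT 1 and was at 0.591 FPKM or less elsewhere.

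**Figure D5:**
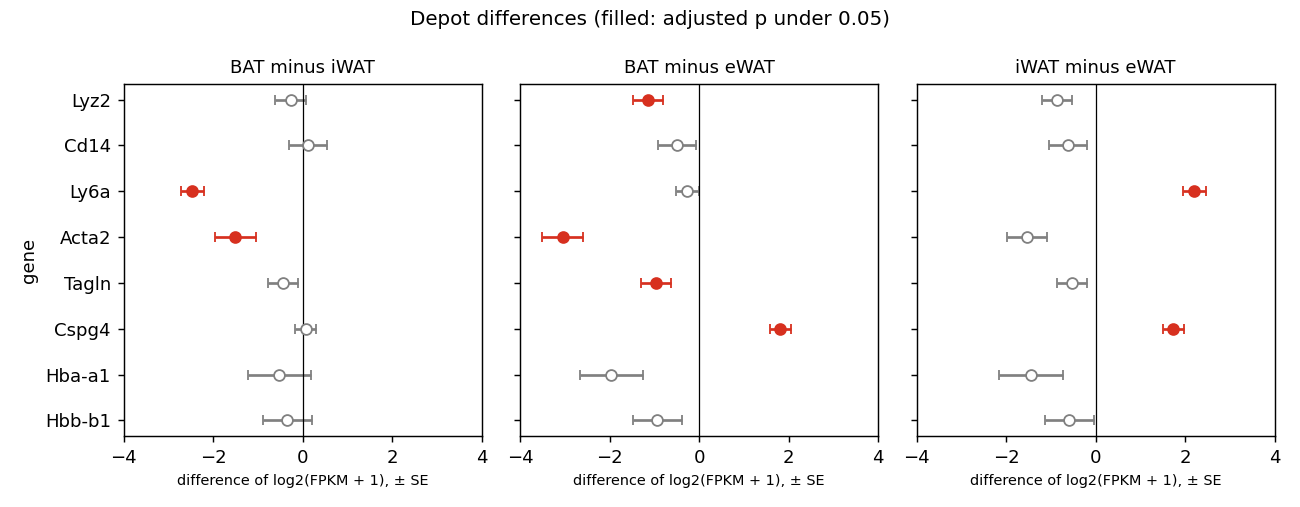
Difference of log2(FPKM + 1) between depots (horizontal axis, ± SE from limma, 3 libraries a depot) for the 8 markers that passed the filter; filled points have an adjusted p under 0.05. Ly6a, Cspg4 and Acta2 are each called in 2 of the 3 comparisons, Lyz2 and Tagln in 1, and Cd14, Hba-a1 and Hbb-b1 in none.

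Of the 8 markers, 2 had lower levels in BAT when set against iWAT (Ly6a and Acta2), where 57.5% of all tested genes were called (22.9% lower in BAT, 34.5% higher). No marker was higher in BAT there, with a count of 0 also at an unadjusted p under 0.05 in limma. Against eWAT, where 33.7% of all were called, 3 were lower in BAT (Acta2, Lyz2 and Tagln, beside 13.5% of all) and 1 was higher (Cspg4, beside 20.2%). Acta2, Lyz2 and Tagln were under 1 FPKM in all 3 BAT libraries and passed the filter only through white libraries, so the filter itself favoured genes lower in BAT and these counts support nothing about the markers as a group. With no filter Acta2 was still called against eWAT (adjusted p = 0.00362) and against iWAT (0.0493), and Lyz2 (0.0633) and Tagln (0.115) were not called against eWAT. Without BAT 3, or without BAT 1, BAT 2 or eWAT 3, the count of lower markers was 1, Acta2 alone. Over all 10374 tested genes the same fits called 806 to 975 lower in BAT than in eWAT. Between iWAT and eWAT, where 1.74% of all were called, 2 markers were higher in iWAT (Ly6a and Cspg4, beside 0.231% of all) and 0 lower (beside 1.5%). At an unadjusted p under 0.05 in limma 2 were lower, Acta2 and Lyz2. The share of all tested genes at an unadjusted p was not counted in any comparison, so counts at that threshold support nothing about the markers. With the replicate number as a block 1 marker was lower in iWAT than in eWAT, Acta2, beside 193 of all 10374 tested genes. The median of all tested genes lay at 0.23 for BAT minus iWAT, -0.02 for BAT minus eWAT and -0.18 for iWAT minus eWAT on the log2(FPKM + 1) scale. The comparisons share libraries, so their counts are not independent.

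With no filter on low values all 36 markers entered the fit, of 19409 genes. Pdgfra was then lower in BAT than in iWAT (log2 difference -0.57, SE 0.11, limma adjusted p = 0.00716), and Msln was lower in BAT than in eWAT (-0.67, SE 0.10, adjusted p = 0.00246) and lower in iWAT than in eWAT (-0.62, SE 0.10, adjusted p = 0.0454). In total the comparison with iWAT gave 3 markers lower in BAT (11.2% of all 19409 genes) and 0 higher (17.8%), 0 also at an unadjusted p under 0.05. The share of all genes at an unadjusted p was again not counted. Against eWAT 2 were lower in BAT (5.84%) and 1 higher (9.87%), and between iWAT and eWAT 1 was lower in iWAT (0.356%) and 2 higher (0.124%). The Pdgfra and Msln calls rest on values under 1 FPKM, where a handful of reads sets the level.

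Other markers of the same cell types were low for blood cells and in part high for stroma. Of 97 such genes in the table, 68 had a mean under 1 FPKM and 31 passed the filter. By limma, 14 of these 31 were below their iWAT level in BAT and 3 above it, beside 22.9% and 34.5% of all tested genes. Against eWAT 12 were lower in BAT and 2 higher, beside 13.5% and 20.2% of all, and in iWAT 2 were below their eWAT level, beside 1.5% of all. The same filter applied to them. All 15 further lymphocyte genes had a mean under 1 FPKM. Of 19 further myeloid genes 13 did. The invariant chain Cd74 lay between 1.46 and 2.66 FPKM. The complement chain C1qa was at 0.316, 0.458 and 0.12 FPKM in BAT, 1.97, 2.29 and 8.11 in iWAT and 2.12, 0.52 and 2.45 in eWAT (BAT minus iWAT -1.79 on the log2(FPKM + 1) scale, limma adjusted p = 0.00615). The BAT values rest on roughly 1 to 8 reads. C1qa passed the filter only through white libraries, so the filter itself favoured a lower level in BAT.

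Of 14 further endothelial genes 11 had a mean under 1 FPKM. The tight junction protein Cldn5 was the highest, at 1.87, 1.55 and 1.45 FPKM in BAT, 9.91, 4.05 and 1.69 in iWAT and 7.85, 2.90 and 12 in eWAT (BAT lower than eWAT, limma adjusted p = 0.0412). Egfl7 and Esam lay between 0.406 and 6.00 FPKM with no call. The von Willebrand factor gene Vwf and the lymphatic gene Lyve1 did not exceed 0.409 and 0.0835 FPKM.

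Genes of fibroblasts and mural cells outside the 36 were in part abundant. Of 14 fibroblast genes 9 passed the filter, and in BAT 6 of them were below their iWAT level (22.9% of all tested genes), 6 below their eWAT level (13.5% of all) and 1 above its iWAT level (34.5% of all). Gelsolin (Gsn), an actin-severing protein, was at 1360 to 3920 FPKM in white fat and 74.3 to 167 FPKM in BAT, dermatopontin (Dpt) at 75.4 to 339 FPKM in iWAT and 1.58 to 13.2 FPKM in BAT, and decorin (Dcn) at 25 to 97 FPKM in eWAT and 1.08 to 5.34 FPKM in the other depots. Dpp4, which marks early progenitors, did not exceed 0.263 FPKM. Of 10 mural genes 4 passed. The contractile genes among the 10 did not share 1 order of depots. Smtn had its highest mean in iWAT (14.7 FPKM, beside 6.95 in eWAT and 2.17 in BAT). Mylk had its highest in eWAT (10.1 FPKM, beside 1.57 in iWAT and 0.962 in BAT), and Cnn1, at 0.362 FPKM or less, in BAT. Mcam (CD146) was at 37.3 to 153 FPKM in white fat and 8.82 to 22.8 FPKM in BAT, and desmin (Des) at 34.7 to 43.4 FPKM in BAT and 1.38 to 5.56 FPKM in white fat. The pericyte genes Rgs5, Kcnj8 and Abcc9 did not exceed 0.701, 0.939 and 1.43 FPKM in the same libraries. Several of these genes are also made by adipocytes or muscle, and their level alone does not name a source.

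Outside the 36, 7 mesothelial and 8 nerve genes were in the table. Among them the transcription factor Wt1, a mesothelial gene, did not exceed 1.33 FPKM. The keratins Krt8 and Krt19 did not exceed 7.77 and 2.97 FPKM. The means of Wt1 and Krt8 were higher in iWAT (0.832 and 4.67 FPKM) than in eWAT (0.444 and 2.79 FPKM). That of Krt19 was higher in eWAT (2.25 FPKM, against 1.82 in iWAT). The tubulin Tubb3, known from neurons, was at 154, 411 and 269 FPKM in iWAT, 51.6, 193 and 173 in eWAT and 51.6, 20.2 and 31.9 in BAT. Tubb3, Krt8 and Erbb3 each had their highest value in iWAT 2, the library with the highest Krt5, the keratin of basal epithelium, at 188 FPKM.

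Markers of tissues outside fat also moved with the depots. The summed level of 6 skeletal muscle genes was 149, 59.9 and 92.7 FPKM in BAT, 1760, 2460 and 1720 in iWAT and 227, 1240 and 1050 in eWAT, and that of 5 epithelial genes was 39.8, 21.1 and 30.2 FPKM in BAT, 130, 352 and 258 in iWAT and 53.0, 172 and 152 in eWAT. Both sums were lower in the 4 deep libraries than in the 5 shallow ones. Acta1, the muscle actin that resembles Acta2 in sequence, was at 58.4 to 148 FPKM in BAT, 668 to 1370 FPKM in iWAT and 225 to 714 FPKM in eWAT, and its part in the level of Acta2 was not tested. In eWAT 1, with a muscle sum of 227 FPKM, Acta2 was at 9.52 FPKM, above each iWAT library. In eWAT 2 and 3, with muscle sums of 1240 and 1050 FPKM, Ly6a was at 3.61 and 3.25 FPKM, close to BAT. The part of muscle or epithelium in the level of either gene was not tested. All BAT libraries are deep and all iWAT libraries shallow, so that depth and depot cannot be told apart between those depots.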

How the data were processed

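Ribosome-bound RNA of 9 libraries, 3 per depot, was sequenced after removal of ribosomal RNA. The authors deposited FPKM values per gene symbol, made with TopHat and Cufflinks on build mm9 per the submitters' processing notes. Versions, annotation, strand and filters are not given in the sources used here, and the header names no unit, so FPKM is inferred from Cufflinks. Of 22996 lines, 728 carry 259 repeated symbols, of which the one with the highest mean level was used. FPKM plus 1 was taken to log2 and tested with limma 3.58.1 (R 4.3.3, trend, no block) in 1 fit of all 9 libraries, with 6 residual degrees of freedom, over genes at 1 FPKM or more in at least 3 libraries, with Benjamini-Hochberg adjustment and a threshold of 0.05. On simulated data with 200 changed genes among 10374, log2 changes of 2 were recovered in 83.5% for BAT against iWAT, 87.5% for BAT against eWAT and 86% for iWAT against eWAT, and log2 changes of 1 in 22%, 0% and 14.5%. Depth was estimated from single-read steps in genes of 1 transcript of at least 1000 bases. Between 44.4% and 63.6% of the values used fell within 0.15 of whole reads, so read counts are approximate and no count test was run. Gene positions are from GENCODE vM1 (mm9) and the promoter from RefSeq (GRCm38.p6).

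Members and lists were chosen with earlier results of these data known. By rule all 36 markers were described, and of each other list at most the 3 genes of highest mean were named; some are not reported here. Vwf, Lyve1, Dpp4, Rgs5, Kcnj8, Abcc9, Mylk, Cnn1, Krt5, Acta1, Lep, Erbb3 and the lymphocyte genes of the closing section that are not among the 36 were named after their values were seen. Same-numbered iWAT and eWAT libraries had correlations of 0.634, 0.534 and 0.165 in their deviations over all tested genes. The third lay below that of iWAT 2 with eWAT 3 (0.228). The labels name no pairs. The reported fit has no block, and the replicate number as a block is an alternative. BAT numbers showed no pairing with iWAT (-0.324, -0.225 and 0.121) or eWAT (-0.388, -0.202 and 0.103). The block ties BAT by number all the same, so its BAT comparisons assume pairs that these values do not show. Blocked values stand beside the results they change. Alternatives were other pseudocounts, filters, scalings and weights, depots fitted in pairs, the block, summed lines and libraries left out.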

Additional observations from a re-analysis of the deposited data

How the results depend on the processing

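Ly6a in BAT against iWAT (log2 difference -2.84 to -2.29), Acta2 in BAT against eWAT (-4.55 to -2.58) and Cspg4 in BAT against eWAT (1.65 to 2.68) stayed called under every alternative in which they were tested. With a filter on a mean of at least 5 FPKM only Ly6a and Cd14 were tested. Counts became 1 lower in BAT than in iWAT, 0 higher and 0 lower in BAT than in eWAT, and 1 higher in iWAT than in eWAT. Of all 5934 genes under that filter, 1374 were lower in BAT than in iWAT. Against eWAT 1400 were higher and 844 lower in BAT, and 16 were higher in iWAT than in eWAT. Leaving out 1 library at a time gave 1 to 2 markers lower in BAT than in iWAT and 1 to 4 lower in BAT than in eWAT. It gave 0 to 2 lower in iWAT than in eWAT, the 2 without iWAT 1. Over all 10374 tested genes the same fits called 1602 to 2654, 806 to 2243 and 34 to 2862 lower in these comparisons, the 2862 also without iWAT 1. Without the 2 shallow eWAT libraries 1 marker was lower in BAT than in eWAT and 1 higher in iWAT than in eWAT. With depots fitted in pairs 1 was higher in iWAT than in eWAT, beside 12 of all 10374 genes. Markers lower in iWAT than in eWAT, 0 in the fit reported (156 of all 10374 genes), numbered 1 with no filter (69 of 19409) and 3 with array weights (1891 of 10374). With the replicate block the number was 1 (193 of all 10374 genes). The calls over all genes moved with these settings too, so these counts support nothing about the markers as a group. The block also brought Hba-a1 in BAT against eWAT under the threshold (limma adjusted p = 0.024) and changed no other call. Hba-a1 in BAT against eWAT also came under the threshold with depots fitted in pairs (0.026), array weights (0.000713) and summed lines (0.0391). It did so as well without iWAT 1 (0.0496), iWAT 2 (0.0177) or eWAT 1 (0.0115). In the line used, Hba-a1 was under 1 FPKM in all 3 BAT libraries and passed the filter only through white libraries. With no filter its limma adjusted p in this comparison was 0.134.

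The Lyz2 call in BAT against eWAT was also lost with no filter (adjusted p = 0.0633) and without the 2 shallow eWAT libraries (0.451), and that of Tagln with a pseudocount of 0.1 (0.0517), no filter (0.115), quantile normalization (0.0743) and without those libraries (0.301). Differences that were not called changed sign, among them BAT minus iWAT of Cd14 (-0.12 with median-ratio scaling, -0.037 with quantile normalization, -0.009 with array weights, and -0.376 to 0.476 with 1 library left out), of Cspg4 (-0.19 and -0.087 with those scalings, -0.022 to 0.219 with 1 library left out), of Hba-a1 (-0.925 to 0.296 with 1 library left out) and of Hbb-b1 (0.398 with array weights, -0.966 to 0.122 with 1 library left out). The difference iWAT minus eWAT of Hbb-b1 ran from -0.959 to 0.034 with 1 library left out. The mean share of the median marker in the median adipocyte gene was 0.0327% in BAT, 0.0997% in iWAT and 0.0711% in eWAT. By sums it was 0.0528% in BAT. Against Adipoq alone it was 0.0149% in BAT and 0.0127% in eWAT. Over the 8 markers that passed the filter it was 0.256%, 1.62% and 0.675% in BAT, iWAT and eWAT. The cause of these changes was not tested, apart from the smaller number of markers tested under the stricter filter. Depth limits all values under about 1 FPKM in the 5 shallow libraries.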

Other observations

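Lymphocyte genes were near 0 everywhere, yet 10 of the 19 that were above 0 in any library, of 21 in the table, had their highest value in iWAT 2. Among them were the B cell genes Cd79a (1.32 FPKM), Pax5 (0.895 FPKM) and Cd79b (0.812 FPKM), the T cell genes Lck (0.832 FPKM) and Cd8a (0.733 FPKM), and Ptprcap (1.15 FPKM), a partner of CD45. Pax5 was listed at 0 in the 8 other libraries. In iWAT 2, 1 read on a transcript of 2000 bases is worth 0.16 FPKM, so each value rests on few reads. Of 20 endothelial genes 10 had their highest value in eWAT 3. These patterns were noticed in the values and not tested. The share of all genes with their highest value in each library was not counted, so neither count supports anything about these cell types.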
